A study of Homo sapiens with 6 samples.

Results

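The genes described here are 10 genes of mitochondrial fusion, fission and transport: MFN1, MFN2, OPA1, DNM1L, FIS1, MFF, MIEF1, MIEF2, RHOT1 and RHOT2. They were chosen by symbol and not by a threshold on their values, although earlier results of these data were known. Each symbol matched 1 Ensembl identifier among the 61496 features of the count table, and all 10 were among the 27514 features abundant enough to be tested. The libraries came from U251, an established human glioma cell line grown as a bulk culture. The control group held 3 libraries from untreated cells, and the sevoflurane (Sev) group held 3 from cells kept for 2 h under this volatile anesthetic, with no other agent or genetic change named for either group. The treatment protocol lists concentrations from 1.7% to 5.1% without assigning one to a library, and a figure legend of the study gives 5.1% for the sequenced cells. The study describes its quantitative data in general as coming from independent experiments, but the labels do not say whether these libraries came from separate cultures. The p-values therefore measure the spread between these libraries, which may be technical. The question was which members of this machinery differed in mRNA level after Sev, and in which direction.

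Mitochondria form a network that is remodeled continually by fusion and fission and that is carried along the cytoskeleton. In fusion, the mitofusins MFN1 and MFN2 join the outer membranes and OPA1 joins the inner membranes. In fission, the cytosolic GTPase encoded by DNM1L (DRP1) is recruited by adaptors of the outer membrane, among them MFF, FIS1, MIEF1 and MIEF2, and constricts the organelle. The Miro GTPases RHOT1 and RHOT2 tie mitochondria to adaptors of the microtubule motors. Proliferating glioma cells use the same machinery to distribute and to renew their mitochondria.

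The libraries held between 38624292 and 46318311 counts, and the share of transcripts of the mitochondrial genome was 1.35% to 1.76% in control and 1.13% to 1.35% in Sev libraries. Of 10 glial markers, 8 had at least 10 counts in every library, VIM, NES and GFAP among them. The defining astrocyte markers AQP4 and ALDH1L1 had at most 17 and 5 counts. The summed level of the glial markers was 7651 to 9043 CPM in control and 7698 to 8490 CPM in Sev libraries. For 9 markers of other cell types it was 34.6 to 37.8 and 38.7 to 48.2 CPM, and EPCAM and PTPRC had at most 5 and 12 counts. Among the glial markers S100B, SOX2 and OLIG2 were lower in Sev, with log2 fold changes of −1.10, −0.72 and −1.99, and among the others PECAM1, SYT1 and PDGFRB were higher, by 0.92, 0.55 and 0.81. The part of these differences, and of the mitochondrial-genome share, in the results was not tested.

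In Sev-treated cells, OPA1, MFN2 and MIEF1 were higher, and MFN1 and RHOT1 were lower. DNM1L, FIS1, MFF, MIEF2 and RHOT2 did not pass the test. Thus 5 of the 10 genes had an adjusted p-value under 0.05. The test was the quasi-likelihood F test of edgeR, adjusted by Benjamini and Hochberg's method over all tested features. The share over all tested features was 43.7%, with 22.1% higher and 21.5% lower, and it was 48.9% among the features with a mean of at least 10 CPM, which include all 10 genes. The share of 5 in 10 is therefore close to the background and is not particular to these genes. The groups did not overlap in CPM for 6 of the 10 genes, against 56.5% of all tested features, which is also close to the background. CPM are counts scaled to a common library size by edgeR's TMM method. By the study's stricter threshold, a log2 fold change beyond 1 with an unadjusted p-value under 0.05, 1 of the 10 genes passed, MIEF1, against 23.5% of all tested features. The median log2 fold change of the 10 genes was 0.10, and that of all tested features was −0.0056. With library size as the only scaling the medians were −0.038 and −0.15, so that of the 10 genes changed sign.

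**Figure D1:**
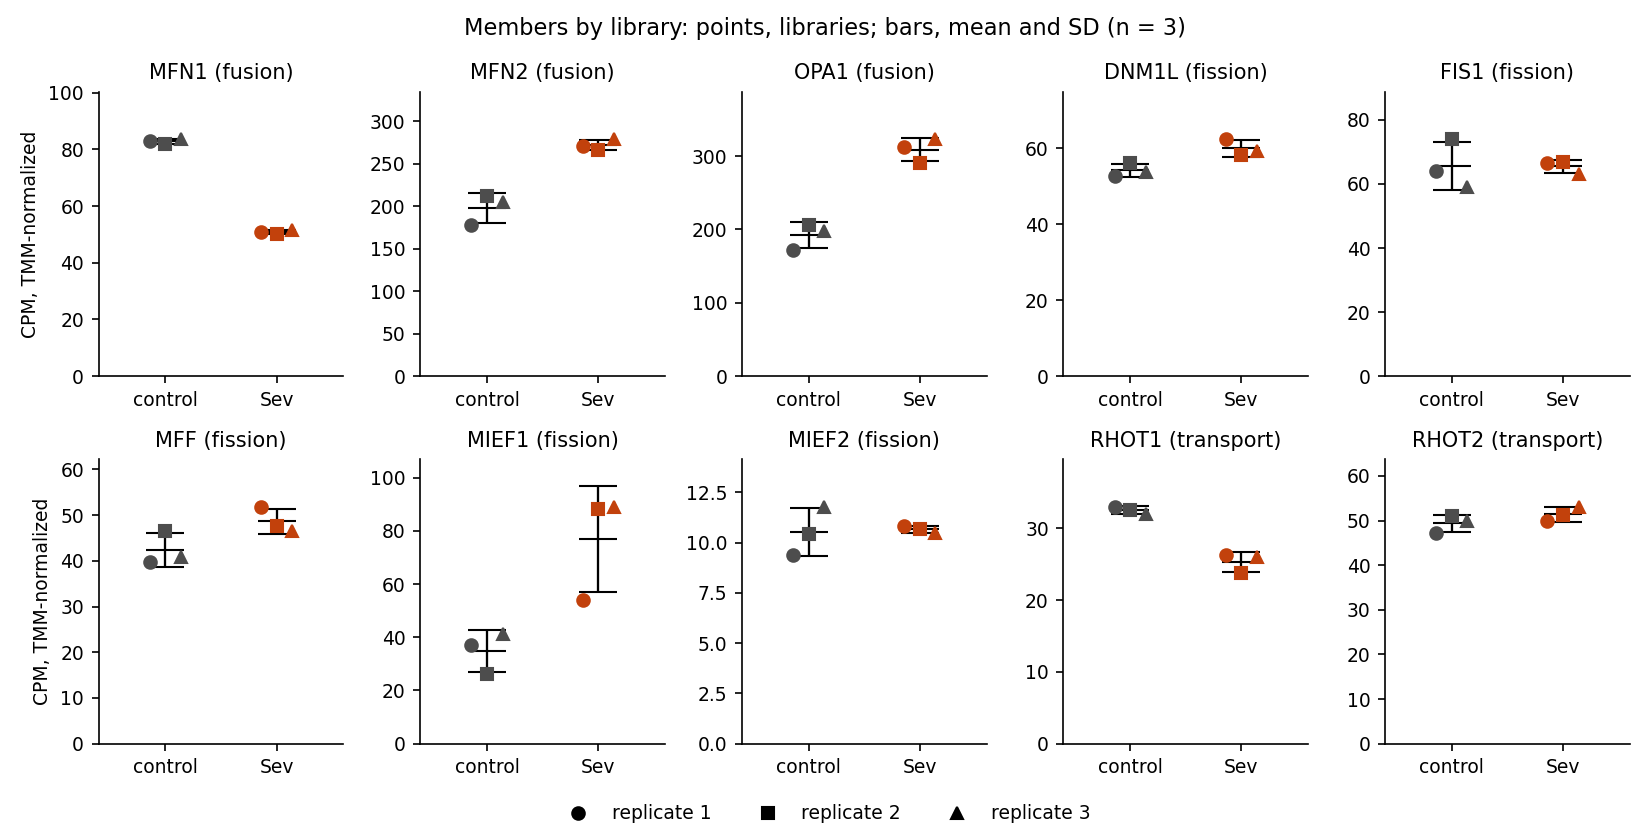
TMM-normalized CPM of the 10 genes, with 1 panel per gene, 1 point per library and bars for the mean and SD of 3 libraries; each axis starts at 0. MFN1 and RHOT1 sit lower in all Sev libraries than in any control library, and MFN2, OPA1, DNM1L and MIEF1 sit higher. Such groups without overlap were found for 56.5% of all tested features.

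The 3 fusion genes all passed the test, and they moved in different directions. Of all tested features 43.7% passed, and 3 genes are too few to set against that share. MFN1 (ENSG00000171109, chromosome 3, 179347692 to 179394931 in GRCh38), a mitofusin of the outer membrane, had 82.9, 82.0 and 83.6 CPM in the control libraries and 50.8, 50.2 and 51.4 CPM in the Sev libraries. The Sev libraries were all lower, and the gap between the groups was far wider than the spread within them. MFN1 fell by 0.71 on the log2 scale (standard error, SE, 0.071, edgeR adjusted p = 0.000335), a level 1.63-fold lower.

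MFN2 (ENSG00000116688, chromosome 1, 11980181 to 12013514), the related mitofusin that also tethers mitochondria to the endoplasmic reticulum, had 178, 212 and 205 CPM in the control libraries and 271, 266 and 279 CPM in the Sev libraries. The groups did not overlap, with control replicate 1 the lowest of the 6. MFN2 rose by 0.46 in log2 (SE 0.085, edgeR adjusted p = 0.00418), which is 1.37-fold.

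OPA1 (ENSG00000198836, chromosome 3, 193593144 to 193697823), the GTPase that fuses inner membranes and shapes cristae, had 172, 207 and 198 CPM in the control libraries and 313, 291 and 323 CPM in the Sev libraries. All Sev libraries were higher than all control libraries. The log2 fold change was 0.68 (SE 0.091, edgeR adjusted p = 0.000992), or 1.61-fold. The antisense gene OPA1-AS1 shares 2.30% of the exon bases of OPA1 and had 26 to 57 counts per library, against at least 7296 for OPA1.

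The promoters of the fusion genes are shown because these genes moved in opposite directions. Each runs from 250 bases before to 50 bases after the gene's start in RefSeq (GRCh38.p14, plus strand), and capitals mark TGACG or its reverse complement CGTCA, the half-site of the cAMP response element. MFN1 lies at chr3:179347459-179347758, MFN2 at chr1:11980194-11980493 and OPA1 at chr3:193592958-193593257.
MFN1: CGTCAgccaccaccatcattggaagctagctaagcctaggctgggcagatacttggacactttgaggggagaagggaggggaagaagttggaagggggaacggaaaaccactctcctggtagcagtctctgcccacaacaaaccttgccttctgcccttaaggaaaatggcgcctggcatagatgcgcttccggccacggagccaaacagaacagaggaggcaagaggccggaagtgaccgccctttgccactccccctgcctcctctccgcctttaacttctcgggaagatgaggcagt
MFN2: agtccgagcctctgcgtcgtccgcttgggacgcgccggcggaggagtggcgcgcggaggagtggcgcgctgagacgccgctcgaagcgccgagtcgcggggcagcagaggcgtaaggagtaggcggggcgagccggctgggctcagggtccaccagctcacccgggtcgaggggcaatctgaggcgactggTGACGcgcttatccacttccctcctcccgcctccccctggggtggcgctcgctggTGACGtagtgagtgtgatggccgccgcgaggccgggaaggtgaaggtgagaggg
OPA1: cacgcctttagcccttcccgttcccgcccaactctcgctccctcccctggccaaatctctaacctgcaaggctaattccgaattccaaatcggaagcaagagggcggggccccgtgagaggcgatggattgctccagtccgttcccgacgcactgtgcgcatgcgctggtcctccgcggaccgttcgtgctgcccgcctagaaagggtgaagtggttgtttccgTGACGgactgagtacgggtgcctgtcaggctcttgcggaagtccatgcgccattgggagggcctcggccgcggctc

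The MFN1 promoter had a GC content of 57.0% and 10 CpG, against 71.3% and 37 for MFN2 and 63.0% and 27 for OPA1. The medians over 35116 promoters of this length were 58.7% and 14. Among the genes not called, DNM1L had 70.0% and 21, FIS1 66.7% and 21, and RHOT2 74.7% and 37 in the richer of its promoters. MIEF2 had a GC content of 66.3% in both of its promoters, and MFF had 33.7% to 53.3%. A relation of base content to the changes was not tested. In MFN2 the half-site began 59 and 4 bases before the start and in OPA1 26 bases before it, and in MFN1 250 bases before it. Promoters were matched for 9 of the 10 genes, 13 in all, and not for RHOT1. The half-site, which was added to the search after the longer motifs gave no match, was present on either strand in 6 of the 13 promoters, which belong to 5 genes, and in 24.6% of all promoters. Besides the fusion genes it was found in MFF, 38 bases before the start, and in both promoters of MIEF2, which have different starts. It began 207 bases before the start of the first MIEF2 promoter and 171 bases before that of the other. Neither gene passed the test of counts. The half-site was not found in the promoter of MIEF1, which had the highest fold change of the 10 genes. A part of the half-site in the changes was not tested. The full palindrome TGACGTCA, which contains the half-site, was in none of the 13 promoters and in 1.85% of all. TGATGNAAN, the core of the element bound by ATF4 with C/EBP factors, was also in none of the 13 and in 3.61% of all.

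Among the 5 fission genes, MIEF1 alone passed the test, beside 43.7% of all tested features. MIEF1 (ENSG00000100335, chromosome 22, 39499432 to 39518132), which encodes the outer-membrane DRP1 receptor MiD51, had 36.9, 26.2 and 41.4 CPM in the control libraries and 53.9, 88.1 and 89.0 CPM in the Sev libraries. The groups did not overlap, although Sev replicate 1 lay closer to the control libraries than to the other Sev libraries. The log2 fold change was 1.14 (SE 0.23, edgeR adjusted p = 0.00553), or 2.21-fold, and its standard error was the widest of the 10. Without control replicate 2, the lowest library, it was 0.97, which is within the study's fold limit. MIURF, a coding gene on the same strand annotated in the upstream part of the MIEF1 transcript, shares 2.82% of the exon bases of MIEF1. MIURF had 87 to 150 counts in control and 197 to 215 counts in Sev libraries, with a log2 fold change of 0.96 (adjusted p = 0.0042, edgeR). Reads of the shared stretch could have gone to either gene.

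The related receptor gene MIEF2 (ENSG00000177427, chromosome 17, 18260534 to 18266552), which encodes MiD49, had 9.41, 10.4 and 11.8 CPM in control and 10.8, 10.7 and 10.5 CPM in Sev libraries. The Sev values lay within the control range. Its log2 fold change was 0.016, with a 95% interval from −0.28 to 0.31 (adjusted p = 0.93, edgeR). MIEF2 had the fewest reads of the 10 genes, 398 to 572 counts per library.

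DNM1L (ENSG00000087470, chromosome 12, 32679200 to 32745650), the gene of the fission GTPase itself, had 52.8, 56.0 and 53.8 CPM in control and 62.4, 58.2 and 59.3 CPM in Sev libraries. All Sev libraries were above all control libraries, by a narrow margin, an ordering found for 28.3% of all tested features in this direction. The log2 fold change was 0.15 with a 95% interval from −0.032 to 0.32 and an adjusted p of 0.16 in edgeR, so the difference did not pass. With library size as the only scaling it was 0.005.

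The adaptor genes MFF and FIS1 did not pass either. MFF (ENSG00000168958, chromosome 2, 227325151 to 227357836), an outer-membrane receptor for DRP1, had 39.7, 46.6 and 40.8 CPM in control and 51.8, 47.6 and 46.4 CPM in Sev libraries. Its groups overlapped, at control replicate 2 and Sev replicate 3. The log2 fold change was 0.20 (95% interval −0.025 to 0.42, adjusted p = 0.134, edgeR).

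FIS1 (ENSG00000214253, chromosome 7, 101239458 to 101252316, minus strand), a tail-anchored outer-membrane protein, had 64.0, 73.9 and 59.0 CPM in control and 66.5, 66.9 and 63.1 CPM in Sev libraries. The Sev values lay inside the control range. The log2 fold change was −0.0024 (95% interval −0.23 to 0.23, adjusted p = 0.986, edgeR).

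Of the Miro genes, RHOT1 was lower in Sev and RHOT2 did not pass. RHOT1 (ENSG00000126858, chromosome 17, 32142454 to 32253374) had 33.0, 32.6 and 31.9 CPM in the control libraries and 26.2, 23.7 and 26.0 CPM in the Sev libraries. The Sev libraries were all lower than the control libraries, and the control libraries differed little among themselves. RHOT1 fell by 0.36 on the log2 scale (SE 0.088, edgeR adjusted p = 0.0128), a level 1.28-fold lower. In these bulk libraries, less RNA per cell and fewer cells with the transcript cannot be told apart.

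RHOT2 (ENSG00000140983, chromosome 16, 668086 to 674174) had 47.1, 50.9 and 49.9 CPM in control and 49.8, 51.3 and 53.1 CPM in Sev libraries. The groups overlapped. The log2 fold change was 0.059 (95% interval −0.12 to 0.24, adjusted p = 0.575, edgeR).

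**Figure D2:**
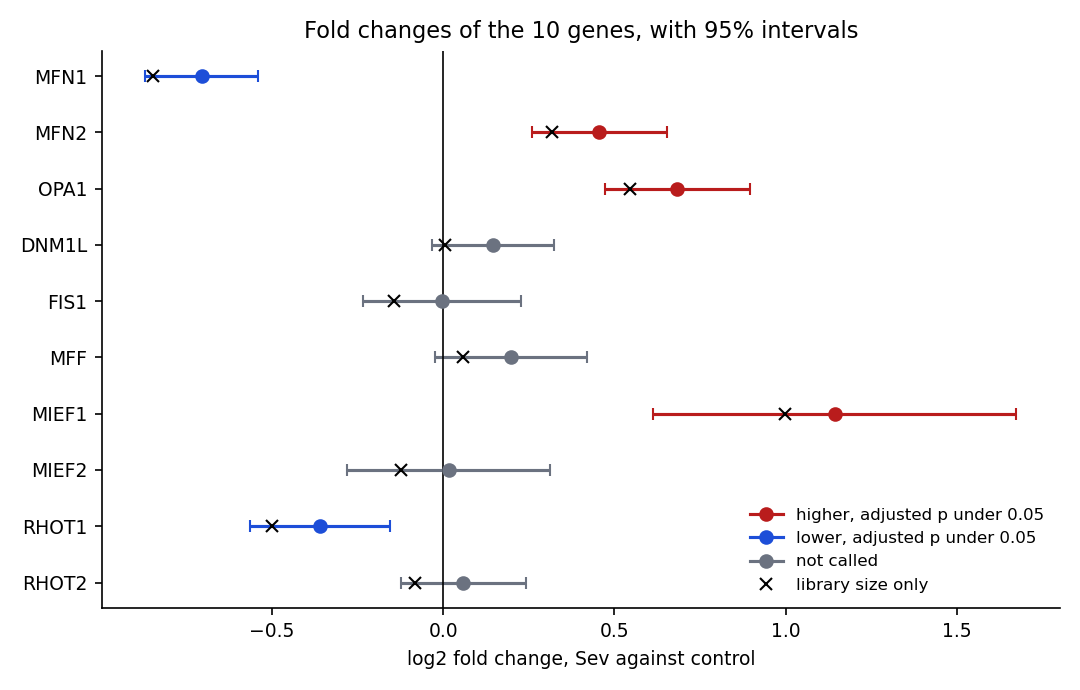
Log2 fold change of Sev against control for the 10 genes (points) with 95% intervals (bars) from edgeR, colored by call, and the value with library size as the only scaling (crosses). The crosses lie about 0.14 to the left of the points for all 10 genes, and the 5 called genes stay on the same side of 0.

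The scaling of the libraries moved these values together. With library size only, the median log2 fold change of all tested features was −0.15, and the called genes kept their direction and call: 0.32 for MFN2, 0.55 for OPA1, 1.0 for MIEF1, −0.85 for MFN1 and −0.50 for RHOT1. The values of MIEF2 and RHOT2 turned negative under this scaling, −0.12 and −0.081, and neither passed.

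Ratios of related genes within a library do not depend on the scaling. The FPKM ratio of MFN2 to MFN1, from the deposited values per length, was 2.57, 3.09 and 2.93 in the control libraries and 6.39, 6.35 and 6.49 in the Sev libraries. The groups were far apart, and the Sev libraries lay close together. Taken from counts, the log2 ratio was higher in Sev by 1.16 (standard error 0.079, n = 3 per group, exact permutation test, two-sided p = 0.1), a 2.24-fold shift of the balance between the mitofusin mRNAs. For 3 libraries against 3, 0.1 is the smallest p that this exact test can give, and adjustment over the 3 pairs left it at 0.1.

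The FPKM ratio of RHOT2 to RHOT1 was 1.81, 1.98 and 1.98 in control and 2.40, 2.73 and 2.59 in Sev libraries, also without overlap. Its log2 ratio was higher by 0.42 (standard error 0.069, n = 3 per group, exact permutation test, p = 0.1). The FPKM ratio of MIEF2 to MIEF1 was 0.603 ± 0.146 (SD, n = 3) in control and 0.282 ± 0.0908 (SD, n = 3) in Sev libraries. In log2 from counts it fell by 1.11 (standard error 0.32, n = 3 per group, exact permutation test, p = 0.1), and the nearest libraries, control replicate 1 and Sev replicate 1, were not far apart. In the mitofusin pair both genes passed the test of counts, in opposite directions, and in the other pairs 1 gene did.

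**Figure D3:**
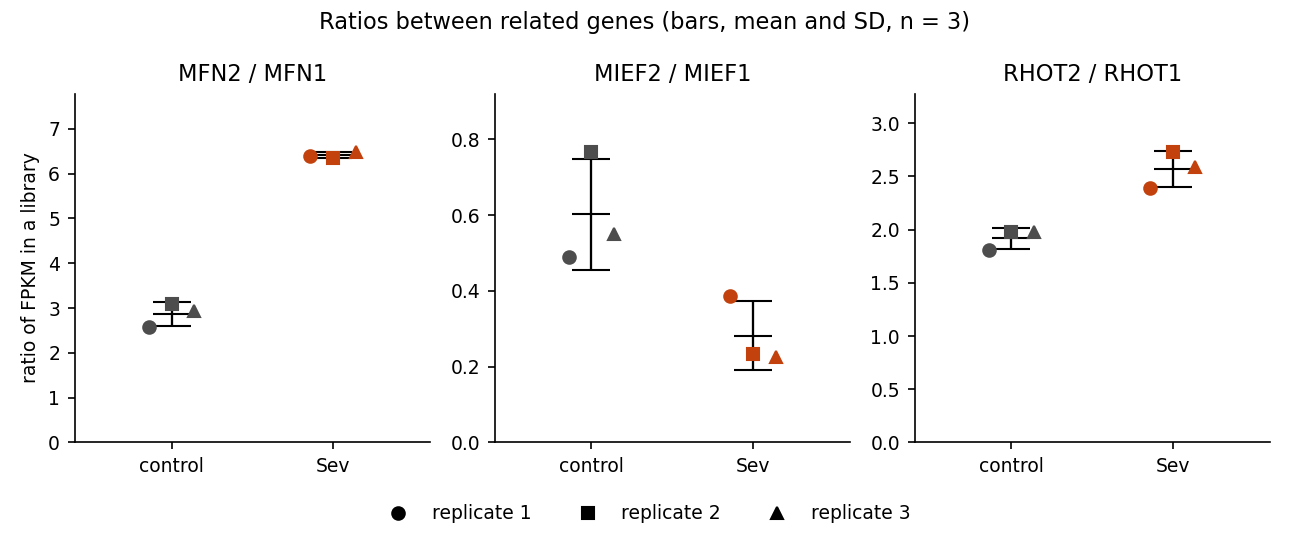
Ratio of deposited FPKM between related genes within each library (points), with the mean and SD of 3 libraries (bars); axes start at 0. The MFN2 to MFN1 ratio rises from between 2.57 and 3.09 to between 6.35 and 6.49, and none of the 3 ratios overlaps between the groups.

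Transcripts in GENCODE 29 were searched for runs of 100 bases shared between genes, sampled every 20 bases, so that any shared run of 119 bases or more would be found. No run was found between any pair of the 10 genes, and 7 of the 10 had none with any other gene. MFN1 shared at least 1 run of 100 bases with 6 other genes, MIEF1 with the overlapping coding gene and RHOT1 with its copy RHOT1P1. RHOT1P1 held counts equal to 0.937% of those of RHOT1, and MFFP3, the copy with the most reads, to 1.78% of those of MFF. The treatment of shared reads and of strand in the counting is not given in the sources used here.

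Levels per length put MFN2 first in both groups. The deposited FPKM of MFN2 was 33.9 ± 2.37 (SD, n = 3) in control and 42.2 ± 2.39 in Sev libraries. FIS1 followed with 31.2 ± 3.29 and 28.2 ± 0.417 FPKM and OPA1 with 18.1 ± 1.32 and 26.4 ± 2.25 FPKM. In control cells MFN2 and FIS1 overlapped and OPA1 lay apart below them, whereas in Sev-treated cells OPA1 overlapped FIS1 and MFN2 lay apart above both.

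MFN1 held rank 4 of the 10 in control cells, with 11.9 ± 0.304 FPKM (SD, n = 3) and no overlap with its neighbors in the order. In Sev-treated cells it held rank 6, with 6.58 ± 0.301 FPKM, and overlapped DNM1L at 6.33 ± 0.349 FPKM, which in turn overlapped MFF at 6.06 ± 0.372 FPKM. MIEF1 moved from rank 9, with 3.92 ± 0.914 FPKM and overlap with RHOT1 at 4.24 ± 0.136, to rank 4, with 7.83 ± 2.06 FPKM and overlap with RHOT2 at 7.67 ± 0.456. RHOT1 held rank 9 in Sev-treated cells at 2.99 ± 0.251 FPKM, apart from its neighbors. MIEF2 was last in both groups, at 2.28 ± 0.24 and 2.08 ± 0.0587 FPKM. FPKM are scaled by library size without TMM, and for each of the 10 genes the length that links its counts to its FPKM differed by at most 1.08% between libraries.

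**Figure D4:**
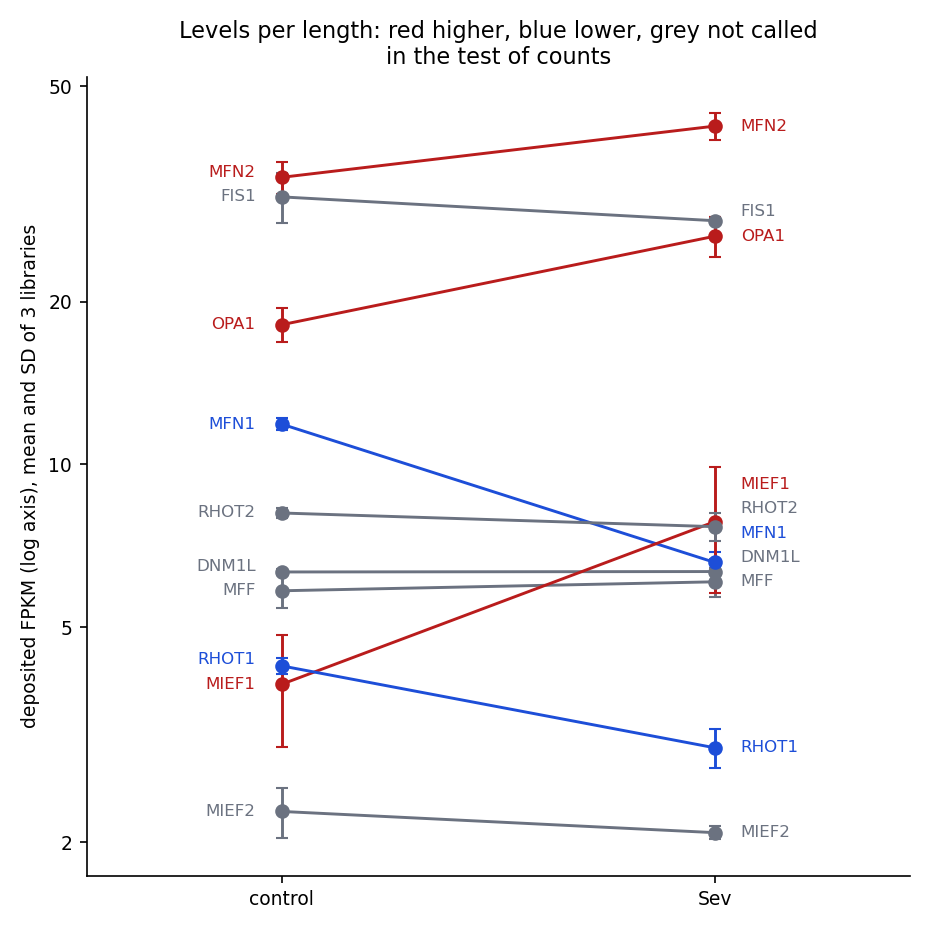
Mean deposited FPKM of the 10 genes in control and Sev libraries on a log axis, with the SD of 3 libraries, colored by the call in the test of counts. MFN2 is at 33.9 and 42.2 and MIEF2 at 2.28 and 2.08, the top and bottom of both groups, and the lines of MFN1 and MIEF1 cross between the groups.

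Beside these genes, 50 further genes of mitochondrial dynamics were taken from a list by role, and all 50 were tested. In Sev-treated cells 18 were higher and 8 lower at the adjusted limit of 0.05, which is 52.0%, against 43.7% of all tested features and 48.9% of those with a mean of at least 10 CPM, a level that most of the 50 genes reached. Among the latter features 27.1% were higher and 21.8% lower. The shares of called genes in the 5 lists described next were 37.5% to 62.5%, to be read against these values and the small number of genes in each list. With library size only the split was 12 higher and 11 lower. Their median log2 fold change was 0.16, and 0.025 with library size only. By the study's threshold 0 were higher and 4 were lower, against 11.4% and 12.0% of all tested features.

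Of 8 genes of inner-membrane proteolysis, which process OPA1 or surround its proteases, 4 were higher and 1 was lower, against 22.1% higher and 21.5% lower of all tested features. The lower gene was OMA1, the stress-activated metalloprotease that cleaves OPA1. OMA1 had 11, 10.4 and 11.7 CPM in control and 2.34, 3.99 and 3.08 CPM in Sev libraries. Every Sev library was far lower than every control library, and the gene fell by 1.81 on the log2 scale (SE 0.20, edgeR adjusted p = 0.000501), a level 3.52-fold lower. YME1L1, the ATP-dependent protease that also cleaves OPA1, moved the other way, from 125 ± 8.08 CPM (SD, n = 3) to 162 ± 6.1 CPM, a log2 fold change of 0.37 (adjusted p = 0.00716, edgeR).

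AFG3L2, a subunit of the matrix-facing AAA protease, rose by 0.59 and PHB2, a prohibitin that forms rings in the inner membrane, by 0.38 on the log2 scale. SPG7, named outside the rule after its value was seen because it completes this count, had a log2 fold change of 0.41. PHB2 lost its call in 4 of the 15 alternative fits, with library size only and in the 3 FPKM settings. YME1L1 lost its call in 1, on unfiltered log2(FPKM + 1), with an adjusted p of 0.0633 in limma, and library size alone gave it a log2 fold change of 0.23, against 0.22 on log2(FPKM + 1). AFG3L2, with 2126 to 3447 counts per library, shares 12.6% of its exon bases with TUBB6 on the opposite strand. TUBB6 had 1147 to 2315 counts and a log2 fold change of 0.56 (adjusted p = 0.0504, edgeR). OMA1 shares 6.91% of its exon bases with DAB1 on the same strand, which had 34 to 90 counts per library, against 412 to 570 for OMA1 in control and 88 to 150 in Sev libraries.

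Of 8 regulators of fusion, 4 were higher and 1 was lower, beside the same 22.1% and 21.5% of all tested features. MARCHF5 and MUL1 are ubiquitin ligases of the outer membrane that act on mitofusins. MARCHF5 rose from 49.9 ± 2.7 to 85.7 ± 2.29 CPM (SD, n = 3), a log2 fold change of 0.78 (SE 0.079, edgeR adjusted p = 0.000345), and MUL1 by 0.59. PLD6, a phospholipase of the outer membrane, rose by 0.74, and SLC25A46, named to complete the count, by 0.28. PLD6, with 257 to 474 counts per library, shares 17.6% of its exon bases with a gene on the same strand that had 4 to 16 counts, and 6.88% with MPRIP on the opposite strand, which had 6131 to 7659. MIGA1, a mitoguardin that promotes fusion, fell by 0.34, and its call was lost without control replicate 3 (adjusted p = 0.0633, edgeR) or Sev replicate 3 (adjusted p = 0.0531, edgeR).

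Of 12 regulators of fission, 5 were higher and 0 were lower in edgeR at the adjusted limit. That is 41.7% called, which is near the 43.7% of all tested features. SPIRE1, an actin nucleator with a mitochondrial form, rose from 51.7 ± 1.87 to 83.0 ± 1.21 CPM (SD, n = 3), a log2 fold change of 0.68 (SE 0.074, edgeR adjusted p = 0.000435). An antisense gene with 125 to 204 counts per library shares 25.9% of the exon bases of SPIRE1, which had at least 2045. MTFR2, a mitochondrial fission regulator, rose by 0.81 and PGAM5, a mitochondrial phosphatase, by 0.66. BNIP1 and the dynamin gene DNM2, named to complete the count, rose by 0.66 and 0.25. Among the other 7 genes, MTFP1 was lower by 0.44 at an unadjusted edgeR p of 0.0364, the only one of them under 0.05.

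Of 14 genes of motor adaptors and motors, 2 were higher and 6 were lower, against 22.1% higher and 21.5% lower among all tested features. Of the 6 genes not called, KIF1B, KIF5B and KLC2 had log2 fold changes of 0.19, 0.17 and 0.31 at unadjusted edgeR p-values of 0.0366, 0.0456 and 0.0337. TRAK2, the adaptor that links the Miro proteins to the motors, had 105, 111 and 111 CPM in control and 71.5, 73.0 and 78.0 CPM in Sev libraries. The groups were clearly apart, and TRAK2 fell by 0.56 on the log2 scale (SE 0.076, edgeR adjusted p = 0.00105). The related adaptor TRAK1 did not pass, with a log2 fold change of −0.17 (adjusted p = 0.396, edgeR).

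ARMCX2 and ARMCX1 belong to a family of X-linked armadillo proteins of mitochondria, members of which bind the Miro and TRAK proteins. ARMCX2 fell from 6.45 ± 0.154 to 1.31 ± 0.287 CPM (SD, n = 3), a level 4.92-fold lower (adjusted p = 0.000178, edgeR), with 261 to 305 counts in control and 40 to 61 in Sev libraries. ARMCX1 fell by 1.28 on the log2 scale, with 30 to 53 counts in Sev libraries. ARMCX3, KIF5A and ARMC10, named to complete the count, fell by 1.13, 0.69 and 0.38. The control libraries of ARMCX3 differed widely, from 16.6 to 39.1 CPM. MYO19, an actin motor of mitochondria, rose by 0.57 and KLC1, a kinesin light chain, by 0.35. KLC1 shares 29.9% of its exon bases with XRCC3 on the opposite strand, which had 1238 to 2035 counts per library and a log2 fold change of 0.01. KLC1 lost its call in 7 of the 15 alternative fits. These were the fits leaving out control replicate 2 or 3 or Sev replicate 1 (adjusted edgeR p-values of 0.0528, 0.0646 and 0.0559), with library size only (0.0667 in edgeR) and in the 3 FPKM settings (0.087 to 0.114 in limma). MYO19 lost its call in 1, on unfiltered log2(FPKM + 1), with an adjusted p of 0.0537 in limma.

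Of 8 genes of the cristae organizing system, the complex that holds cristae junctions, 3 were higher and 0 were lower in edgeR. That is 37.5% called, below the 43.7% of all tested features. MICOS13 rose from 13.9 ± 2.17 to 25.4 ± 2.24 CPM (SD, n = 3), a log2 fold change of 0.87 (SE 0.14, edgeR adjusted p = 0.00228), and CHCHD3 rose by 0.44. MICOS13 shares 15.8% of its exon bases with HSD11B1L on the opposite strand, and CHCHD3 shares 5.02% with a processed pseudogene on the same strand that had 2529 to 2980 counts per library. Both overlapping genes were also higher in Sev, HSD11B1L by 0.65 and the pseudogene by 0.33 in log2 (adjusted p = 0.0129 and 0.0146 in edgeR). MICOS10 had a log2 fold change of 0.36 (adjusted p = 0.0371, edgeR). Its call was lost in 11 of the 15 alternative fits, among them those without control replicate 1, 2 or 3 and without Sev replicate 1 or 3, where the adjusted p ran up to 0.103. None of the 5 other genes had an unadjusted edgeR p under 0.05. Smaller overlaps on the opposite strand with genes that were called in the same direction were found for MYO19 (PIGW, 4.45% of exon bases), MICOS10 (CAPZB, 4.62%), TRAK2 (STRADB, 1.90%) and SPIRE1 (PSMG2, 1.41%). Overlaps with genes not called included those of YME1L1 (MASTL, opposite strand, 6.04%), PHB2 (SCARNA12, same strand, 9.56%) and MYO19 (ZNHIT3, opposite strand, 7.99%). KLC1 shares 10.3% with a further gene on its own strand, which had 0 to 164 counts per library.

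**Figure D5:**
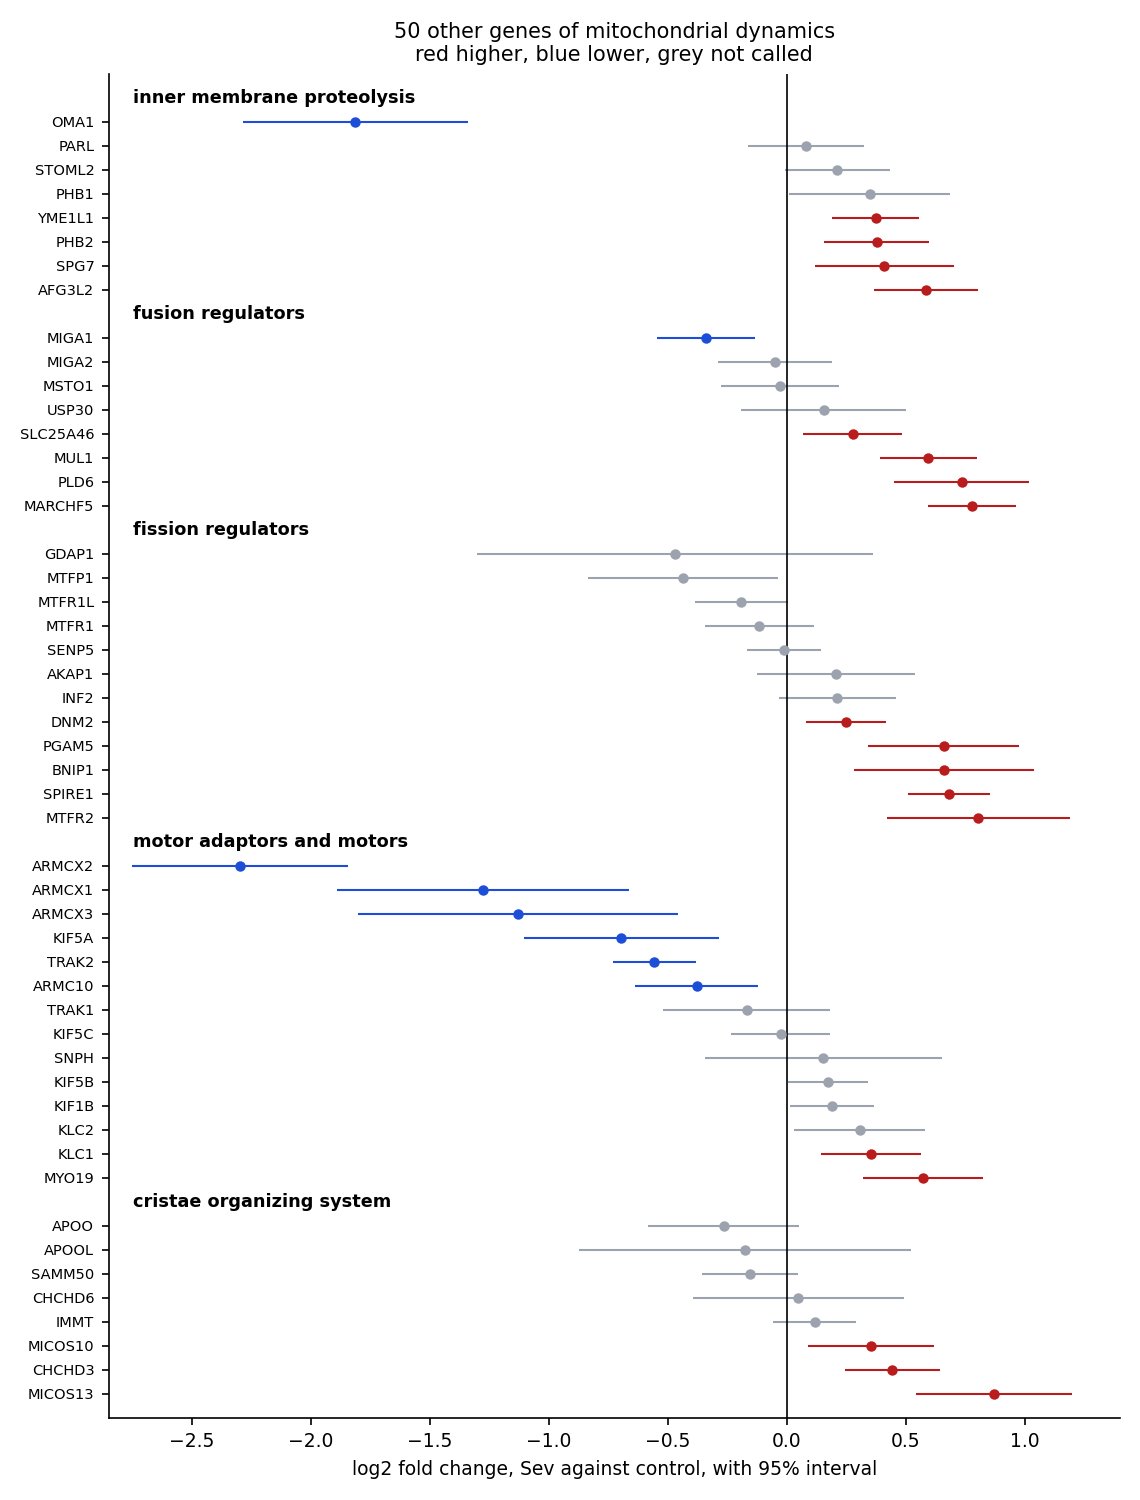
Log2 fold change of Sev against control with 95% intervals for the 50 further genes, grouped by role, colored by the call at an adjusted p-value of 0.05. OMA1 at −1.81 and ARMCX2 at −2.30 stand lowest, and MICOS13 at 0.87 stands highest.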

How the data were processed

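RNA of 6 U251 libraries (3 control, 3 Sev) was depleted of ribosomal RNA, ligated to strand-specific adapters and sequenced in pairs of 150-base reads by the study. The authors deposited raw counts per gene together with FPKM of the same genes. The submitters' processing notes name bcl2fastq 2.19, featureCounts and the build hg18. How the FPKM were computed is not given in the sources used here. Symbols were joined through Ensembl identifiers, and positions are those of GENCODE 29 on GRCh38, not of hg18.

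With edgeR 4.0.16 in R 4.3.3, counts passed filterByExpr, were scaled by TMM and entered glmQLFit and glmQLFTest, 3 libraries against 3 with no covariate and Benjamini-Hochberg adjustment over all tested features. Each SE was obtained from the log2 fold change and the root of its F statistic. Alternatives used DESeq2 1.42.0 and, on log2(FPKM + 1) or log2(FPKM + 0.1), limma 3.58.1 (FPKM of at least 0.5 in 3 libraries, or no filter). Ratios were tested with scipy 1.17.1. The fits were tested on simulated data.

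The 10 genes, the further lists and the tests were chosen with earlier results of these data known. All 10 genes are described, and of each list up to 3 genes per direction with the smallest p among those with an adjusted p under 0.05 are named. Between 49.0% and 67.4% of abundant genes differed between replicates beyond counting noise, so no library repeated another.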

Additional observations from a re-analysis of the deposited data

How the results depend on the processing

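The 5 called genes kept their direction and an adjusted p under 0.05 in all 15 alternative fits: DESeq2's size factors or Wald test, library size only, a minimum of 10 counts in each library, no filter, the replicate block, the 3 settings on FPKM and each library left out. The counts of 3 higher and 2 lower therefore did not move. The largest adjusted p was 0.0418 for MIEF1 and 0.0414 for RHOT1, and the log2 fold change of RHOT1 ran from −0.50 to −0.31. The study's threshold was passed by 0 of the 10 genes with library size only and in the 3 FPKM settings, and by 0 to 1 with a library left out. Of the genes not called, none passed in any alternative, and the sign turned for 3. FIS1 was at 0.012 with DESeq2's size factors and Wald test, 0.0033 with the replicate block, and −0.079 to 0.085 with a library left out, above 0 without control replicate 2 (0.085) or Sev replicate 3 (0.025). MIEF2 was at −0.12 with library size only, −0.069 without control replicate 1 (to 0.098 without control replicate 3), and −0.087, −0.12 and −0.087 on log2(FPKM + 1), log2(FPKM + 0.1) and unfiltered FPKM. RHOT2 was at −0.081 with library size only and at −0.076, −0.084 and −0.076 on the same FPKM settings.

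Of the 50 further genes, the higher ones numbered 11 on log2(FPKM + 0.1) and 9 on unfiltered FPKM, and 12 to 17 with a library left out. The lower ones numbered 5 to 8 with a library left out, the 5 being without Sev replicate 3, and 12 in each of the 3 FPKM settings. The higher and lower genes were thus 12 and 12 on log2(FPKM + 1), 11 and 12 on log2(FPKM + 0.1) and 9 and 12 on unfiltered FPKM, without the excess of higher genes. The study's threshold was passed by 1 gene with log2(FPKM + 1), with or without the filter, a scale that understates changes of low genes, and by 3 to 4 with a library left out.

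The differences in log2 ratio were 1.09 to 1.22 for MFN2 to MFN1, −1.36 to −0.92 for MIEF2 to MIEF1 and 0.38 to 0.47 for RHOT2 to RHOT1 with a library left out. The labels do not say that replicate numbers mark a shared culture, so the numbers were not taken as pairs. Same-numbered libraries correlated at −0.12, 0.0059 and 0.11 in their deviations from the group mean, and differently numbered ones at −0.26 to 0.23. With 3 libraries per group, these values cannot decide whether cultures were shared. With the replicate block, 3 of the 10 genes were higher and 2 were lower, the counts for the 50 further genes were 15 and 7, and the log2 ratio differences were 1.16, −1.11 and 0.42 (exact sign-flip p = 0.25, the smallest possible). Precision is limited by the 3 libraries per group, and for ARMCX1 and ARMCX2 also by few counts.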
